A study of Mus musculus with 12 samples.

Results

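The 42 genes described here serve the copying of DNA in S phase (18 genes) and the division of the cell in mitosis (24 genes). They were chosen by gene symbol, as the rows of a table of 55335 genes whose symbol is on the list, and each of the 42 symbols was found in 1 row. The libraries came from male mice in which Tshr, the receptor of thyroid-stimulating hormone (TSH), carried loxP sites on both alleles. Tshr f/f mice had no Cre, and Tshr MKO mice were Tshr f/f littermates with Lyz2-Cre, which is active in macrophages, neutrophils and other myeloid cells. Bone marrow-derived macrophages (BMDMs) of mice that the labels give as 6 weeks old (the study's general methods also allow slightly older ones) were grown for 7 days with M-CSF at 10 ng/mL, and the cells of both genotypes then received TSH at 1 ng/mL for 24 h, so no library shows cells without TSH. Livers were taken from mice of both genotypes that ate a high-fat diet for 9 weeks, starting when 6 weeks old, 5 min after insulin (1.5 U/kg) and an 8 h fast. Each of the 4 groups had 3 libraries, and the study's methods give 3 mice per group in each tissue. The labels do not tie a library to a mouse.

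In a dividing cell the genes come on in order. Cyclin E with its kinase and the E2F factors open S phase, the MCM complex is loaded on origins and unwinds DNA, PCNA clamps the polymerases, and ribonucleotide reductase, thymidylate synthase and thymidine kinase supply nucleotides. Cyclin A and cyclin B with CDK1 then drive mitosis, in which Aurora and Polo kinases, kinesin motors and kinetochore proteins part the chromosomes and CDC20 and UBE2C help to destroy the cyclins. Macrophages grown from marrow divide in response to M-CSF, whereas most cells of an adult liver are at rest. In bulk RNA, fewer dividing cells and less RNA per dividing cell cannot be told apart.

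Promoters of these genes share short motifs, and those of the pair of S-phase genes and the pair of mitotic genes with the lowest p in BMDMs are printed because the results below turn on these genes. The 250 bases before the start are shown 5′ to 3′ on the strand of the gene, from RefSeq on GRCm38.p6, with capitals for any CHR (the cell cycle genes homology region, TTTGAA), any CCAAT box and any E2F site, the last being TTTCCCGC, TTTGGCGC, TTTCGCGC or TTTGCCGC. Both strands were read, and no match in the sequences shown overlapped another.
Ccne1, chr7:38107491-38107740, minus strand: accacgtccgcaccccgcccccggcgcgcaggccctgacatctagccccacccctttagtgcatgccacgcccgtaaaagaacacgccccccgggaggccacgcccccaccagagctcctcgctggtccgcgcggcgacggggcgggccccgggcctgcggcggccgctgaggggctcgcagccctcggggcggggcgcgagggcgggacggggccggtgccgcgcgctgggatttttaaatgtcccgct
Mcm7, chr5:138171884-138172133, minus strand: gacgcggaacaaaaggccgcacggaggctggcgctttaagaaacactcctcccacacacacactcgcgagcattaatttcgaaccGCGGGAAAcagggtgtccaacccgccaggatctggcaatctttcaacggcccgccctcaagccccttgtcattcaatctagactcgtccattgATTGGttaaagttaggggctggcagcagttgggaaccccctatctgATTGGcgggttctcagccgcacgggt
Mki67, chr7:135716380-135716629, minus strand: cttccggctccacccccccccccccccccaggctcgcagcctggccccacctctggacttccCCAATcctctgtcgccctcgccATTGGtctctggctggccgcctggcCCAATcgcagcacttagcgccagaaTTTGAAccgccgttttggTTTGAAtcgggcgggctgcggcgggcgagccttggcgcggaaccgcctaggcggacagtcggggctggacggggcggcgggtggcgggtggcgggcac
Bub1b, chr2:118597961-118598210, plus strand: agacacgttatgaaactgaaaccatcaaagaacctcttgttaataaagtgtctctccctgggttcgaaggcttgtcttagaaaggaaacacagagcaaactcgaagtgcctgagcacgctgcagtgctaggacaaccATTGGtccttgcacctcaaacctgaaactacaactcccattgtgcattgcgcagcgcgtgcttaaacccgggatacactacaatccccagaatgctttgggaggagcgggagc

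In the 250 bases shown, the Mki67 promoter held 2 CHRs and 3 CCAAT boxes, and that of Mcm7 held 1 E2F site and 2 CCAAT boxes. In the same stretch that of Bub1b held 1 CCAAT box, and that of Ccne1 held none of these words. RefSeq windows of 300 bases (250 before to 50 after the start) were matched for 34 of the 42 genes, 15 of S phase and 19 of mitosis. With the bases after the start, which are not shown, the window of Bub1b held 1 CHR and 1 CCAAT box. That of Mcm7 held 2 E2F sites and 3 CCAAT boxes. A CHR was in 14 of the 19 mitotic windows (73.7%) and in 1 of the 15 S-phase windows (6.67%), against 17.9% of all 32851 windows. An E2F site was in 6 of the 15 S-phase windows (40%) and in 1 of the 19 mitotic windows (5.26%), against 2.26% of all windows. A CCAAT box was in 16 of 19 and 9 of 15, against 37.4%. The mitotic list was thus the one with the CHR and the S-phase list the one with the E2F words. A match of letters is a description and shows no binding.

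Library totals were 28962878 to 40954211 counts. Levels are given in CPM, which are counts scaled to the library size with edgeR's TMM factors. The limit that a count of 0 allows is 3 counts, worth 0.0733 to 0.104 CPM when scaled to the library totals without these factors. Such limits cover counting error only. The TMM factor of Tshr f/f BMDM replicate 3 was 0.738, against 0.993 to 1.11 in the other 5 BMDM libraries. Tshr had 0 to 5 counts in a BMDM library and 0 in every liver library, so the deletion could not be checked here. Of 6 hepatocyte markers 5 were at 0 in all BMDM libraries. The 10 macrophage markers were present in BMDMs, with a summed level of 16168 to 16910 CPM in Tshr f/f and 21993 to 32467 CPM in Tshr MKO libraries, and dendritic-cell markers had 29.8 to 57.3 CPM summed in Tshr f/f and 69.6 to 91.8 CPM in Tshr MKO BMDMs. Of the 3 dendritic-cell markers tested between genotypes 1 was below 0 and 2 above, with log2 fold changes from -1.74 to 1.16. Of the 10 macrophage markers 3 were below 0 and 7 above, from -0.51 to 2.13. The part of either marker list in the results below was not tested. The study's own text lists receptor counts of these livers under the opposite genotype headings, so every direction in liver rests on the labels used here.

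In BMDMs, the proliferation genes of Tshr MKO and Tshr f/f cells lay close together. With edgeR's quasi-likelihood test and Benjamini-Hochberg adjustment over 15372 genes, 0 of 18 S-phase genes and 0 of 24 mitotic genes had an adjusted p under 0.05 (0% of all genes tested; 0 of both lists with DESeq2 also), and at an unadjusted p under 0.05 there were 0 S-phase genes and 1 mitotic gene, Mki67, where 17.9% of all genes passed. The fitted change of 13 S-phase genes was above 0 and of 5 below (median log2 fold change 0.19), and of the mitotic genes 13 were above and 11 below (median 0.04), where 49.2% of all genes were below 0 and their median was 0.01. The 95% interval of the change lay within 2-fold either way for 14 of the 18 S-phase genes and 21 of the 24 mitotic genes, against 48.6% of all genes. Without Tshr f/f replicate 3, a setting chosen after seeing the data, these counts were 15 and 22, against 56.1% of all genes.

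**Figure D1:**
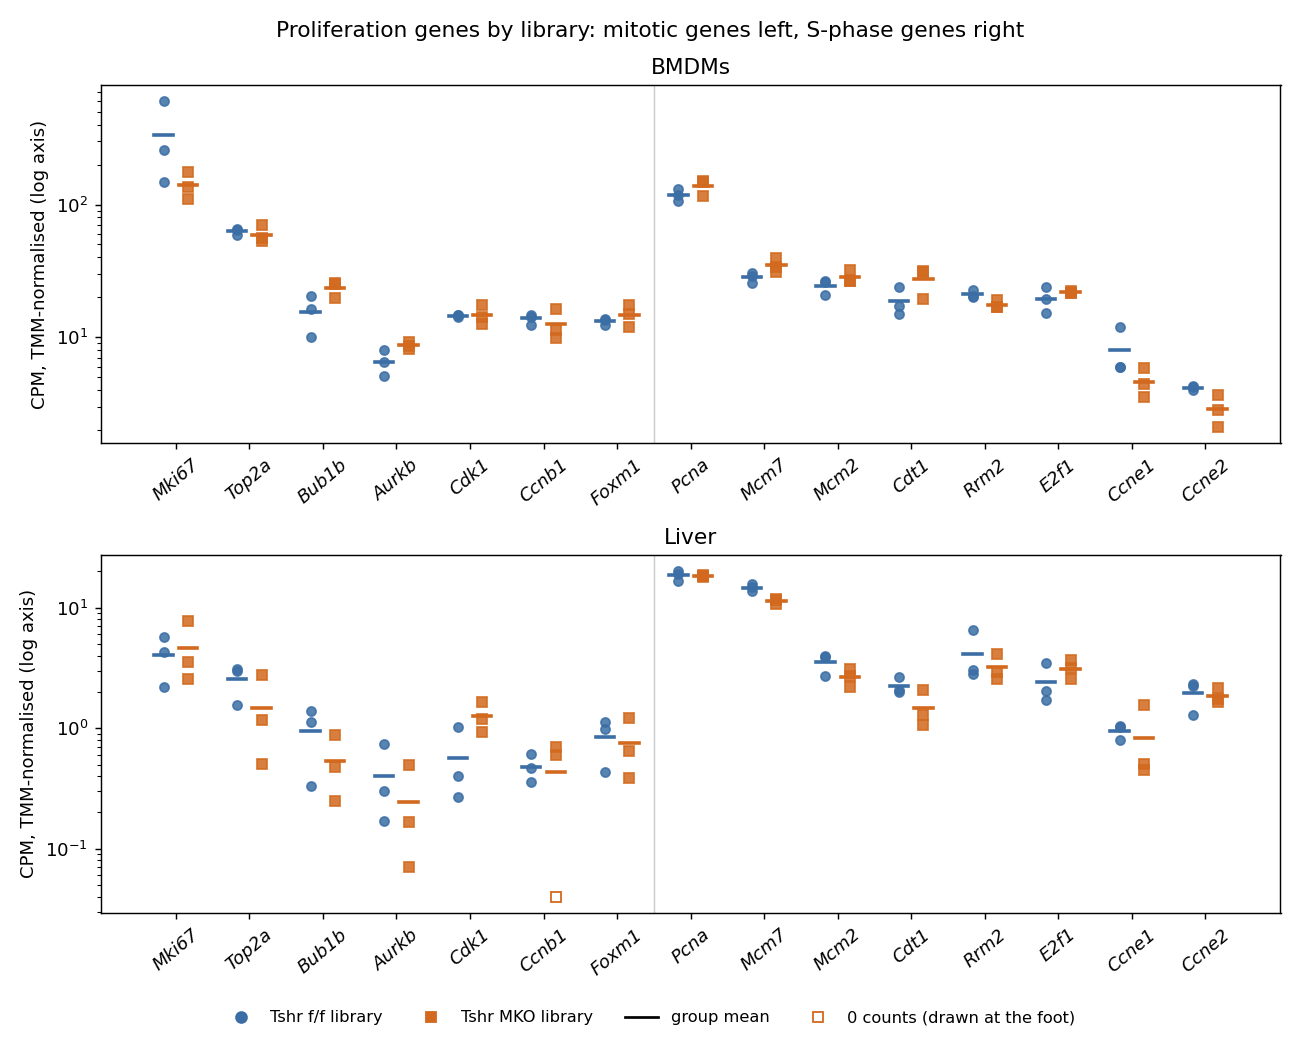
Level of 15 proliferation genes in each library, in CPM on a log axis, for BMDMs (top) and liver (bottom), with Tshr f/f libraries as circles, Tshr MKO libraries as squares and the group mean as a line. In BMDMs Mki67 reached 600.0 CPM in 1 Tshr f/f library while Top2a and Cdk1 lay together in both groups, and in liver most of these genes were below 10 CPM.

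Cyclin E was the S-phase entry with the lowest p. Ccne1 (ENSMUSG00000002068, chromosome 7, 38097984-38107534, GRCm38), cyclin E1, had 6.00, 5.93 and 11.98 CPM in Tshr f/f and 3.55, 4.43 and 5.83 CPM in Tshr MKO BMDMs. All 3 Tshr MKO libraries lay below all 3 Tshr f/f libraries, though by 0.10 CPM at the nearest pair. The log2 fold change was -0.79 (SE 0.36, edgeR adjusted p = 0.303), and -0.37 without Tshr f/f replicate 3, the library with 11.98 CPM. Ccne2, cyclin E2, had 4.22, 4.28 and 3.99 CPM in Tshr f/f and 2.82, 3.65 and 2.12 CPM in Tshr MKO BMDMs, -0.54 on the log2 scale (SE 0.26, edgeR adjusted p = 0.327). The groups of Ccne2 did not overlap either. Ccne2 shares 609 exon bases with Ints8 on the opposite strand, and whether the counting used the strand is not given in the sources used here; Ints8 was at -0.27 on the log2 scale (SE 0.16, edgeR adjusted p = 0.399).

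Of the MCM helicase genes, 0 passed the unadjusted threshold. Mcm7 had 30.4, 29.1 and 25.6 CPM in Tshr f/f and 34.0, 39.3 and 31.2 CPM in Tshr MKO BMDMs, which did not overlap (log2 fold change 0.30, SE 0.14, edgeR adjusted p = 0.305). Mcm7 spans chromosome 5, 138164583-138172422, and shares 321 exon bases with Ap4m1 on the opposite strand, which was at 0.46 on the log2 scale (SE 0.18, edgeR adjusted p = 0.270). Cops6, also on the opposite strand, was at -0.17. Mcm2 had 26.6, 26.2 and 20.8 CPM in Tshr f/f and 26.6, 31.8 and 26.7 CPM in Tshr MKO BMDMs (log2 fold change 0.21, SE 0.15, edgeR adjusted p = 0.468). Their ranges met, and all 6 members of the Mcm2 to Mcm7 ring had a fitted value above 0, from 0.09 in Mcm5 to 0.42 in Mcm6, with no edgeR adjusted p below 0.305. Without Tshr f/f replicate 3 these values were smaller, from 0.01 in Mcm5, 0.06 in Mcm3 and 0.11 in Mcm2 to 0.23 in Mcm7 and 0.28 in Mcm6.

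Cdt1, which loads the MCM ring on origins, had 17.2, 15.0 and 23.9 CPM in Tshr f/f and 31.3, 31.5 and 19.4 CPM in Tshr MKO BMDMs. The third replicate was the highest of its group in Tshr f/f and the lowest in Tshr MKO, and the groups overlapped (log2 fold change 0.55, SE 0.26, edgeR adjusted p = 0.316, and 0.77 without Tshr f/f replicate 3). Pcna, the sliding clamp, was the proliferation gene with the highest level per length in BMDMs, at a mean of 53.2 CPM per kb of exons. It had 130.4, 105.7 and 119.0 CPM in Tshr f/f and 146.6, 149.2 and 115.5 CPM in Tshr MKO BMDMs (log2 fold change 0.21, SE 0.16, edgeR adjusted p = 0.496). A processed copy, Pcna-ps2, had up to 403 counts in a library, so some Pcna reads may sit there.

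Rrm2, the regulated subunit of ribonucleotide reductase, was lower in every Tshr MKO library, with 20.4, 20.2 and 22.7 CPM in Tshr f/f and 16.9, 18.9 and 16.9 CPM in Tshr MKO BMDMs. The difference was small, -0.26 on the log2 scale (SE 0.13, edgeR adjusted p = 0.318). Rrm1, the other subunit, had a log2 fold change of 0.28 with overlapping groups, and Tyms and Tk1 had -0.004 and 0.25. Gins2, Cdc6 and Uhrf1 were at 0.19, 0.20 and -0.05, each with overlapping groups. E2f1, the activating transcription factor of S-phase genes, had 19.5, 23.8 and 15.4 CPM in Tshr f/f and 21.6, 22.2 and 21.7 CPM in Tshr MKO BMDMs. The E2f1 groups overlapped, 0.16 on the log2 scale (SE 0.18, edgeR adjusted p = 0.647), and with 1 library left out in turn the value ran from 0.01 to 0.32. The groups of 4 of the 18 S-phase genes did not overlap, Ccne1, Ccne2 and Rrm2 with Tshr MKO lower and Mcm7 with Tshr MKO higher, against 28.7% of all genes tested (14.0% lower and 14.8% higher).

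Mki67 stood apart in the mitotic list. It encodes Ki-67, the nuclear protein that coats mitotic chromosomes and is used as a stain for cycling cells (ENSMUSG00000031004, chromosome 7, 135689784-135716361, GRCm38). Mki67 had 255.4, 148.9 and 600.0 CPM in Tshr f/f and 110.6, 135.9 and 175.4 CPM in Tshr MKO BMDMs, and the groups overlapped. The log2 fold change was -1.25 (SE 0.51, 95% interval -2.49 to -0.01, unadjusted p = 0.0487, edgeR adjusted p = 0.277). Leaving out Tshr f/f replicate 3 gave -0.53 (edgeR adjusted p = 0.471). Of the 6 BMDM libraries, Tshr f/f replicate 3 carried the highest Mki67, Ccne1 and Ccnd2, and also the highest Cdkn1a, a brake on the cycle. It had the lowest E2f1 (15.4 CPM), the lowest summed level of the S-phase genes (486.6 CPM) and the lowest TMM factor. The part of these in the value of Mki67 was not tested.

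**Figure D2:**
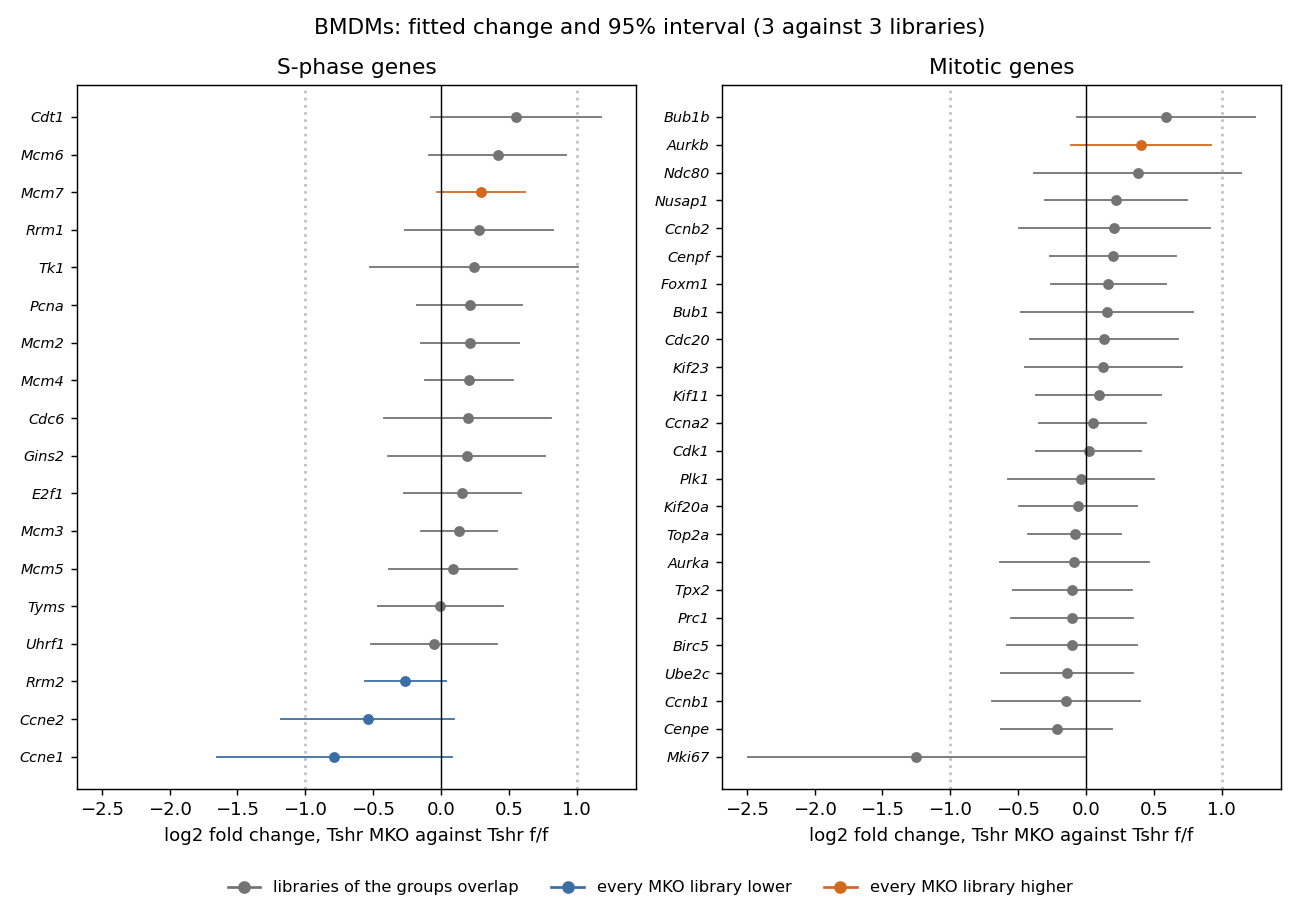
Fitted log2 fold change (points) with 95% interval (lines) of the 18 S-phase and 24 mitotic genes in BMDMs, Tshr MKO against Tshr f/f, with dotted lines at 2-fold. Mki67 at -1.25 lies beyond 2-fold and apart from the other 23 mitotic genes, which lie between -0.22 and 0.59.

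The other mitotic genes did not share this value. Their summed level was 331.3, 343.8 and 305.4 CPM in Tshr f/f and 329.8, 392.7 and 281.3 CPM in Tshr MKO BMDMs. Top2a, the topoisomerase that untangles sister chromatids, had 58.7, 65.2 and 64.7 CPM in Tshr f/f and 55.8, 69.7 and 52.7 CPM in Tshr MKO BMDMs (log2 fold change -0.08, SE 0.14, edgeR adjusted p = 0.773). The highest and the lowest Top2a values were both in Tshr MKO libraries. The count of Mki67 over that of Top2a, a ratio within a library that needs no scaling and was picked after seeing the values, was 4.35, 2.28 and 9.27 in Tshr f/f and 1.98, 1.95 and 3.33 in Tshr MKO BMDMs. Mki67 alone held 30.2 to 66.3% of the counts on the 24 mitotic genes in Tshr f/f and 25.1 to 38.4% in Tshr MKO BMDMs, so these ranges overlapped too. The Mki67 promoter, with its CHRs and CCAAT boxes, holds the same words as that of Top2a, which has 2 CHRs and 6 CCAAT boxes in its window.

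**Figure D3:**
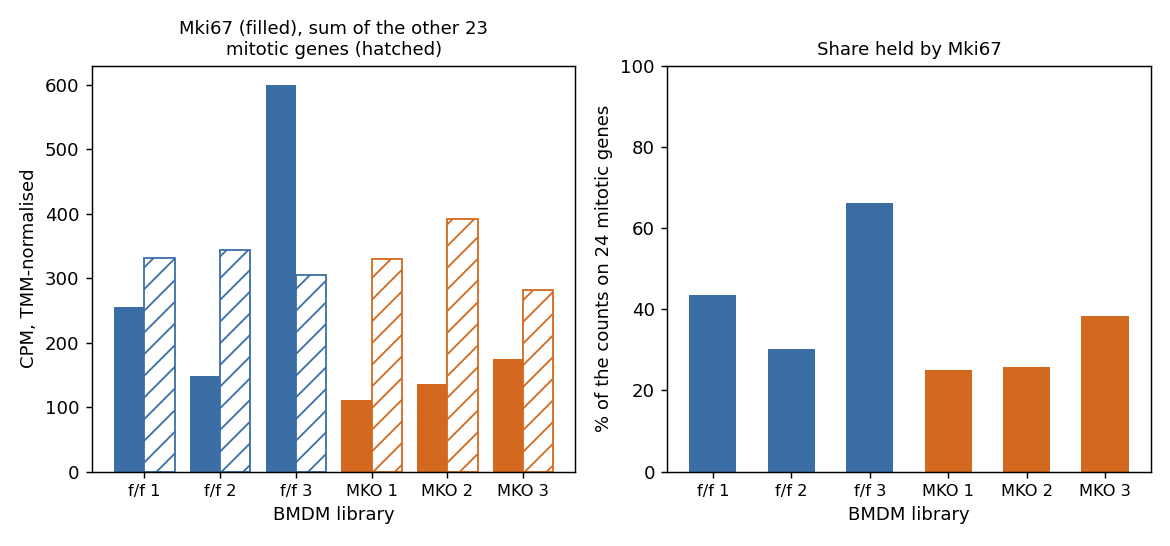
Mki67 and the sum of the other 23 mitotic genes in CPM in each BMDM library (left), and the share of all counts on the 24 mitotic genes that fell on Mki67 (right). The share was 66.3% in Tshr f/f replicate 3 and 25.1 to 43.5% in the other 5 libraries, while the other 23 genes together lay between 281.3 and 392.7 CPM.

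The kinase that drives mitosis, its cyclin and a transcription factor of mitotic genes had overlapping groups. Cdk1 had 14.2, 14.7 and 14.8 CPM in Tshr f/f and 14.3, 17.4 and 12.7 CPM in Tshr MKO BMDMs, with a log2 fold change of 0.02 (95% interval -0.36 to 0.41, edgeR adjusted p = 0.950). That interval corresponds to 0.777 to 1.33 times the Tshr f/f level. Its partner Ccnb1, cyclin B1, had 14.3, 14.8 and 12.4 CPM in Tshr f/f and 11.3, 16.5 and 9.83 CPM in Tshr MKO BMDMs (log2 fold change -0.15, SE 0.23, edgeR adjusted p = 0.741). Foxm1, the transcription factor of the mitotic program, had 13.7, 13.5 and 12.4 CPM in Tshr f/f and 15.1, 17.4 and 11.9 CPM in Tshr MKO BMDMs (log2 fold change 0.17, SE 0.18, edgeR adjusted p = 0.626). In each of the 3 genes the Tshr MKO values reached both above and below all Tshr f/f values, with replicate 2 highest and replicate 3 lowest of the Tshr MKO group, and the Tshr f/f libraries of Cdk1 spanned only 14.2 to 14.8 CPM.

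The mitotic genes with the next lowest p after Mki67 did not pass the unadjusted threshold. Bub1b, which encodes the checkpoint protein BUBR1, had 16.5, 20.3 and 10.1 CPM in Tshr f/f and 19.8, 25.4 and 25.5 CPM in Tshr MKO BMDMs (log2 fold change 0.59, SE 0.27, edgeR adjusted p = 0.305). Aurkb, the kinase of the chromosomal passenger complex, had 6.53, 8.04 and 5.11 CPM in Tshr f/f and 8.20, 8.67 and 9.23 CPM in Tshr MKO BMDMs (log2 fold change 0.41, SE 0.21, edgeR adjusted p = 0.356). Aurkb was the only mitotic gene of 24 whose groups did not overlap, where 28.7% of all genes tested had separate groups. Ndc80, which ties kinetochores to microtubules, had 5.52, 4.72 and 2.96 CPM in Tshr f/f and 5.30, 7.39 and 4.55 CPM in Tshr MKO BMDMs (log2 fold change 0.38, SE 0.32, edgeR adjusted p = 0.529). For Bub1b, Aurkb and Ndc80 the lowest of the 6 values was that of Tshr f/f replicate 3, and without it the log2 fold changes of Bub1b, Aurkb and Ndc80 were 0.36, 0.26 and 0.17.

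Cenpe, a kinesin of the kinetochore, had 21.2, 25.1 and 19.4 CPM in Tshr f/f and 19.0, 21.6 and 16.0 CPM in Tshr MKO BMDMs (log2 fold change -0.22, SE 0.17, edgeR adjusted p = 0.510). Nusap1, a spindle protein, had 5.67, 5.54 and 5.64 CPM in Tshr f/f and 6.50, 8.03 and 5.18 CPM in Tshr MKO BMDMs (log2 fold change 0.22, SE 0.22, edgeR adjusted p = 0.589). Both had overlapping groups. The remaining 14 mitotic genes, among them the cyclins Ccna2 and Ccnb2, the kinases Aurka, Plk1 and Bub1, the motors Kif11, Kif20a and Kif23 and the cyclin-destroying factors Cdc20 and Ube2c, had log2 fold changes from -0.14 to 0.21, with overlapping groups throughout.

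Around the 42 genes, other cell-cycle genes were counted from lists chosen with earlier results of these data known, with 0 at an adjusted p under 0.05 in any of them in either tissue. Of 25 regulators of G1 and of E2F, 3 were lower in Tshr MKO BMDMs and 1 was higher by the unadjusted threshold, against 10.2% and 7.73% of all genes. The lowest p were those of Ccnd2, cyclin D2, at 32.4, 26.6 and 62.9 CPM in Tshr f/f and 16.6, 13.7 and 14.2 CPM in Tshr MKO (log2 fold change -1.45, SE 0.33, edgeR adjusted p = 0.218), and of Rbl1, the pocket protein p107, at -0.85 (SE 0.25, edgeR adjusted p = 0.222). Leaving out Tshr f/f replicate 3 gave -0.99 for Ccnd2 and -0.69 for Rbl1.

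Of 7 CDK inhibitors, 1 was lower and 1 higher at an unadjusted p under 0.05, beside the same 10.2% and 7.73% of all genes. Cdkn1a, which encodes p21, a brake on cyclin-dependent kinases, had 229.4, 139.8 and 701.4 CPM in Tshr f/f and 57.7, 47.1 and 62.8 CPM in Tshr MKO BMDMs (log2 fold change -2.67, SE 0.61, edgeR adjusted p = 0.218). The value was -1.73 when Tshr f/f replicate 3 was left out. Its groups were apart by over 70 CPM while Cdk1, Ccnb1 and Top2a overlapped. Cdkn1c was at 0.38 to 0.75 CPM in Tshr f/f and 0.72 to 2.61 CPM in Tshr MKO BMDMs (log2 fold change 1.60, SE 0.56, edgeR adjusted p = 0.248), and leaving out Tshr f/f replicate 3 gave 1.38 with an unadjusted edgeR p of 0.0739, which no longer passed. The other 5 inhibitors were Cdkn1b (log2 fold change -0.25), Cdkn2a (-0.69), Cdkn2b (-0.55), Cdkn2c (0.67) and Cdkn2d (-0.40), with edgeR adjusted p-values from 0.302 to 0.594.

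The wider machinery gave smaller shares than the 10.2% lower and 7.73% higher of all genes. Of 52 further replication genes 3 were lower and 1 higher at an unadjusted p under 0.05, with the lowest p for Pola2, a subunit of DNA polymerase alpha, at 47.0, 33.1 and 103.1 CPM in Tshr f/f and 20.6, 20.2 and 22.5 CPM in Tshr MKO BMDMs (log2 fold change -1.53, SE 0.41, edgeR adjusted p = 0.218). Pole4, of DNA polymerase epsilon, followed at -0.49 (SE 0.14, edgeR adjusted p = 0.221). Pola2 was at -0.93 when Tshr f/f replicate 3 was left out. Of 57 further mitosis genes 0 were lower and 2 higher, Ncapg2 and Cenpa. Ncapg2, a condensin II subunit, had 54.1, 36.5 and 25.7 CPM in Tshr f/f and 124.3, 103.7 and 111.4 CPM in Tshr MKO BMDMs (log2 fold change 1.55, SE 0.28, edgeR adjusted p = 0.218), and every Tshr MKO value was well above every Tshr f/f value. Cenpa, the centromere histone, was at 0.57 (SE 0.20, edgeR adjusted p = 0.242). The medians of these lists, 0.14 for replication and 0.08 for mitosis, were near those of the S-phase and mitotic genes.

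Of 16 genes tied to quiescence and slow growth, a list chosen with earlier results known, 5 were lower and 1 higher at an unadjusted p under 0.05, where 10.2% of all genes were lower and 7.73% higher. Gadd45a, a stress gene that restrains the cycle, had 64.5, 27.2 and 128.3 CPM in Tshr f/f and 15.1, 15.3 and 13.6 CPM in Tshr MKO BMDMs (log2 fold change -2.32, SE 0.53, edgeR adjusted p = 0.218). Sesn1, a stress sestrin, had 27.0, 17.0 and 3.88 CPM in Tshr f/f and 81.8, 69.2 and 66.0 CPM in Tshr MKO BMDMs (log2 fold change 2.17, SE 0.62, edgeR adjusted p = 0.222). Both had separate groups, and without Tshr f/f replicate 3 they were at -1.65 and 1.72. Replication-dependent histones, whose RNA has no poly(A) tail, were matched in 9 rows with a summed level of 0.289 to 1.12 CPM in BMDMs, and 0 of them could be tested.

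In liver most of the same genes were less abundant and the intervals of the genotype effect were wider. The filter on low counts kept 17 of 18 S-phase genes and 23 of 24 mitotic genes, leaving out Cdc6 (mean 9.00 counts a library) and Bub1 (mean 5.33). With edgeR's quasi-likelihood test over 15062 genes, 0 of the 40 genes had an adjusted p under 0.05 (0% of all genes; 0 with DESeq2 also). At an unadjusted p under 0.05, 2 S-phase genes and 0 mitotic genes passed, against 10.5% of all genes (5.18% lower and 5.27% higher). The S-phase median was -0.21 (12 below and 5 above 0) and the mitotic median -0.11 (12 below and 11 above), where 50.9% of all genes were below 0 and their median was -0.01. The mitochondrial share of counts was 5.55 to 6.80% in Tshr f/f and 7.72 to 8.15% in Tshr MKO livers, and 9 of 9 tested neutrophil markers were below 0 (median -1.38, summed level 10.3 to 109.9 CPM in Tshr f/f and 10.9 to 20.5 CPM in Tshr MKO). Of 10 macrophage markers 9 were below 0 (median -0.22, summed level 202.9 to 539.8 CPM in Tshr f/f and 209.8 to 480.0 CPM in Tshr MKO), and the part of these in the medians was not tested. The 95% interval lay within 2-fold for 6 of the 17 S-phase genes and for 1 of the 23 mitotic genes, against 63.4% of all genes. The median half-width of the interval was 1.31 on the log2 scale over the mitotic genes, against 0.48 over all genes.

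**Figure D4:**
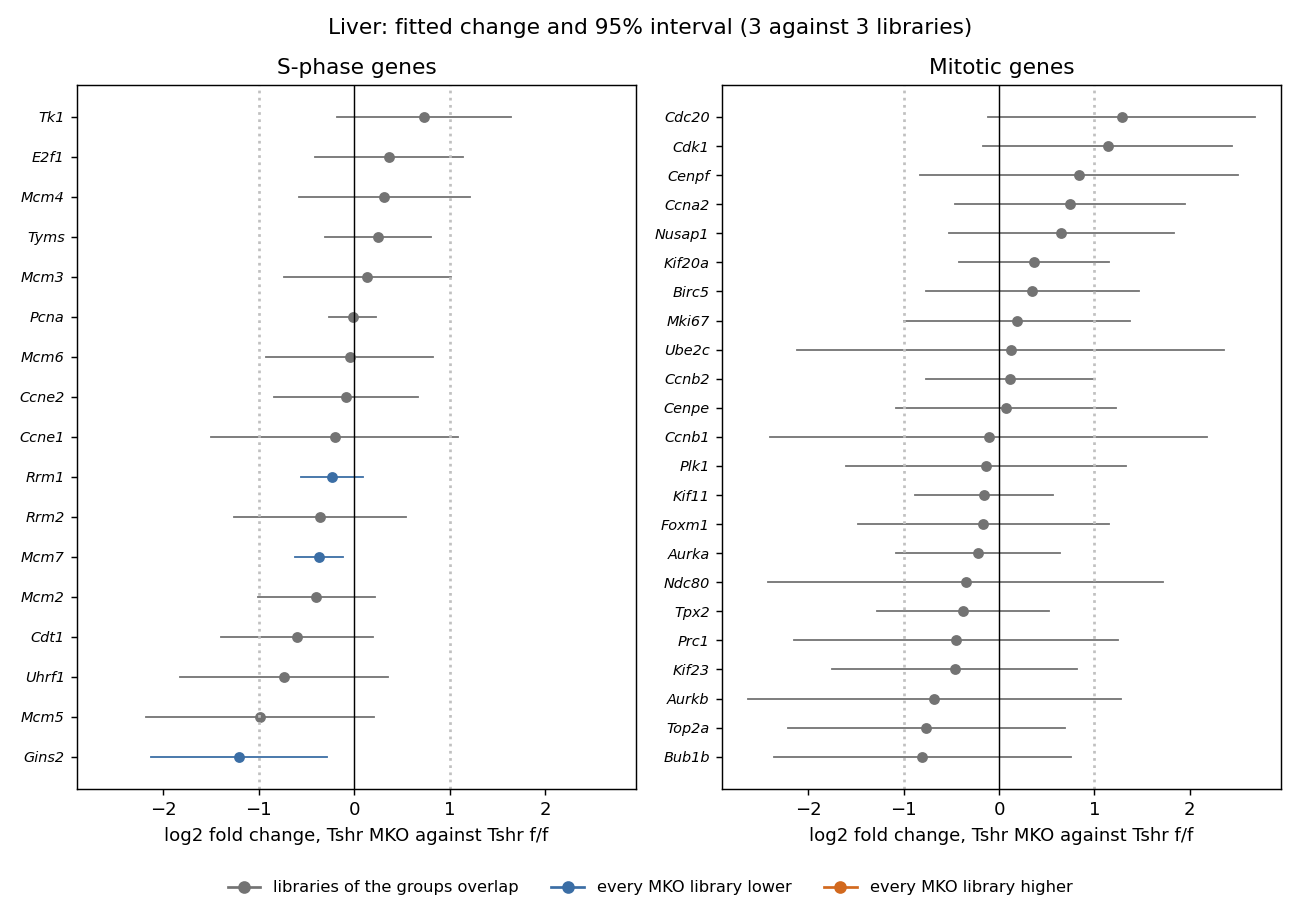
Fitted log2 fold change (points) with 95% interval (lines) of the 17 S-phase and 23 mitotic genes tested in liver, Tshr MKO against Tshr f/f, with dotted lines at 2-fold. The intervals of Mcm7 and Gins2 lie below 0, and those of 22 of the 23 mitotic genes reach beyond 2-fold.

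Mcm7 and Gins2 had the lowest p of the S-phase genes in liver. Mcm7 had 15.6, 14.7 and 13.7 CPM in the livers labelled as Tshr f/f and 11.5, 11.8 and 10.8 CPM in livers labelled Tshr MKO (log2 fold change -0.37, SE 0.11, unadjusted p = 0.0113, edgeR adjusted p = 0.349). Gins2, of the GINS complex that moves with the helicase, had 1.96, 1.87 and 1.33 CPM in Tshr f/f and 0.56, 0.60 and 1.10 CPM in Tshr MKO livers (log2 fold change -1.21, SE 0.39, unadjusted p = 0.0174, edgeR adjusted p = 0.384). Every Tshr MKO value of both genes was below every Tshr f/f value. Gins2 had a mean of only 40.3 counts and shares 2758 exon bases with Gse1 on the opposite strand, which had a mean of 787 counts and was at -0.33 on the log2 scale (SE 0.29, edgeR adjusted p = 0.739). Rrm1 was the third S-phase gene with separate groups, at 7.82, 8.41 and 8.46 CPM in Tshr f/f and 7.15, 7.36 and 6.55 CPM in Tshr MKO livers (log2 fold change -0.23, SE 0.14, edgeR adjusted p = 0.600). These 3 of 17, with Tshr MKO lower in each, stood against 7.74% of all genes with Tshr MKO lower, 9.60% with Tshr MKO higher and 17.3% in either direction.

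Mcm5 had 1.29, 2.89 and 0.86 CPM in Tshr f/f and 0.64, 1.02 and 0.88 CPM in Tshr MKO livers (log2 fold change -0.98, SE 0.51, edgeR adjusted p = 0.541), and without Tshr f/f replicate 2 it was -0.34. Tk1, thymidine kinase, had 6.33, 18.36 and 9.09 CPM in Tshr f/f and 20.79, 15.50 and 19.89 CPM in Tshr MKO livers (log2 fold change 0.73, SE 0.38, edgeR adjusted p = 0.553), and it ran from 0.44 when Tshr f/f replicate 1 was left out to 1.27 when replicate 2 was. Cdt1 had 2.67, 2.01 and 2.06 CPM in Tshr f/f and 1.29, 2.07 and 1.06 CPM in Tshr MKO livers (log2 fold change -0.60, SE 0.34, edgeR adjusted p = 0.577). With 1 library left out in turn Cdt1 ran from -0.94 to -0.42. All 3 overlapped, and Tshr f/f replicate 2 was the highest library of its group in Mcm5 and Tk1.

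Pcna had the fitted value nearest 0 of the proliferation genes tested in liver, at 19.1, 20.1 and 16.6 CPM in Tshr f/f and 18.75, 18.50 and 17.95 CPM in Tshr MKO livers (log2 fold change -0.02, 95% interval -0.26 to 0.23, edgeR adjusted p = 0.977). Mcm2 had 2.71, 3.97 and 3.88 CPM in Tshr f/f and 2.18, 2.74 and 3.11 CPM in Tshr MKO livers (log2 fold change -0.40, SE 0.26, edgeR adjusted p = 0.639). Pcna and Mcm2 both overlapped. Rrm2 had 2.81, 6.51 and 3.05 CPM in Tshr f/f and 2.93, 4.17 and 2.55 CPM in Tshr MKO livers (log2 fold change -0.36, SE 0.38, edgeR adjusted p = 0.798). E2f1 had 2.03, 3.47 and 1.73 CPM in Tshr f/f and 3.66, 2.55 and 3.15 CPM in Tshr MKO livers (log2 fold change 0.37, SE 0.33, edgeR adjusted p = 0.744), or 0.17 to 0.73 with 1 library left out. Ccne1 had 1.02, 1.05 and 0.80 CPM in Tshr f/f and 0.50, 0.45 and 1.56 CPM in Tshr MKO livers (log2 fold change -0.21, SE 0.55, edgeR adjusted p = 0.936). The second replicate was the highest of each genotype in Rrm2, and a single Tshr MKO library held the highest Ccne1. The other 6 tested S-phase genes, Ccne2, Mcm3, Mcm4, Mcm6, Tyms and Uhrf1, had fitted values from -0.73 in Uhrf1 to 0.32 in Mcm4, with overlapping groups.

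Mitotic genes in liver rested on few counts, and no group was separate in any of the 23 tested. Cdc20, the activator of the anaphase-promoting complex, had 23, 10 and 12 counts in Tshr f/f and 35, 81 and 17 counts in Tshr MKO livers (log2 fold change 1.29, SE 0.59, edgeR adjusted p = 0.500). Cdk1 had 8, 37 and 12 counts in Tshr f/f and 33, 69 and 34 counts in Tshr MKO livers (log2 fold change 1.14, SE 0.55, edgeR adjusted p = 0.515). Ccna2, cyclin A2, had 19, 33 and 12 counts in Tshr f/f and 23, 72 and 26 counts in Tshr MKO livers (log2 fold change 0.75, SE 0.51, edgeR adjusted p = 0.656). In these genes the highest library was Tshr MKO replicate 2, without which the log2 fold change of Cdc20 was 0.71 and that of Ccna2 0.24.

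Nusap1 had 25, 16 and 11 counts in Tshr f/f and 37, 44 and 14 counts in Tshr MKO livers (log2 fold change 0.65, SE 0.50, edgeR adjusted p = 0.700), or 0.43 to 1.09 with 1 library left out. Top2a had 91, 108 and 47 counts in Tshr f/f and 18, 117 and 33 counts in Tshr MKO livers (log2 fold change -0.76, SE 0.61, edgeR adjusted p = 0.716). Bub1b had 41, 41 and 10 counts in Tshr f/f and 17, 37 and 7 counts in Tshr MKO livers (log2 fold change -0.81, SE 0.66, edgeR adjusted p = 0.721). With 1 library left out in turn Top2a ran from -1.62 to -0.35, Bub1b from -1.38 to -0.44 and Cdk1 from 0.81 to 1.90, and none of the 3 had an edgeR adjusted p under 0.05. Mki67 had 4.26, 5.73 and 2.19 CPM in Tshr f/f and 3.55, 7.69 and 2.58 CPM in Tshr MKO livers (log2 fold change 0.18, SE 0.50, edgeR adjusted p = 0.937). The count of Mki67 over that of Top2a was 1.38, 1.93 and 1.40 in Tshr f/f livers. In the livers labelled Tshr MKO this ratio was higher, at 7.06, 2.76 and 2.21, where in BMDMs it had leaned lower. The ratio was picked after seeing the values, and the 7.06 rested on 18 Top2a counts. The share of the counts on the 24 mitotic genes that Mki67 held overlapped in liver. It was 17.2, 19.9 and 14.1% in Tshr f/f and 17.8, 21.8 and 17.0% in Tshr MKO livers. Foxm1 had 33, 36 and 13 counts in Tshr f/f and 23, 51 and 11 counts in Tshr MKO livers (log2 fold change -0.16, SE 0.56, edgeR adjusted p = 0.954). Ccnb1 had 18, 13 and 14 counts in Tshr f/f and 25, 25 and 0 counts in Tshr MKO livers (log2 fold change -0.11, SE 0.96, edgeR adjusted p = 0.983). The 0 of Ccnb1 in Tshr MKO replicate 3 allows up to 3 counts, or 0.106 CPM with the TMM factor of that library. Replicate 3 was the lowest library of its group for Mki67 and Foxm1 in both genotypes. The other 14 tested mitotic genes had fitted values from -0.68 in Aurkb to 0.83 in Cenpf, on means of 9.67 to 59.5 counts.

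Cell-cycle genes beyond the 42 gave the following in liver, again with 0 at an adjusted p under 0.05. The shares of all genes to set beside these counts are 5.18% lower and 5.27% higher. Of 25 G1 and E2F regulators 2 were lower and 0 higher at an unadjusted p under 0.05, Myc (log2 fold change -0.86, SE 0.31, edgeR adjusted p = 0.421) and Cdc25a (-0.55, SE 0.21, edgeR adjusted p = 0.440). Cdkn1a had 93.6, 78.4 and 110.2 CPM in Tshr f/f and 18.6, 26.4 and 29.9 CPM in Tshr MKO livers (log2 fold change -1.92, SE 0.21, edgeR adjusted p = 0.151). Its groups were far apart, as in BMDMs, and it was the 1 of 5 tested CDK inhibitors that passed the unadjusted threshold. Cdkn1b (log2 fold change -0.17), Cdkn1c (0.02), Cdkn2c (0.09) and Cdkn2d (-0.40) had edgeR adjusted p-values from 0.670 to 0.995.

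Of 47 further replication genes tested in liver 31 had a fitted value above 0 and 16 below (median 0.07). Of 42 further mitosis genes tested 1 was lower at an unadjusted p under 0.05, against 5.18% of all genes, Ccnf (cyclin F, -0.92, SE 0.20, edgeR adjusted p = 0.318), and 1 higher, against 5.27%, Spc24 (a kinetochore protein, 0.56, SE 0.21, edgeR adjusted p = 0.436). Of 15 tested genes of quiescence and slow growth 3 were lower and 0 higher, against the same shares, led by Tob1 (-0.99, SE 0.10, edgeR adjusted p = 0.151) and Btg1 (-0.37, SE 0.09, edgeR adjusted p = 0.334), both antiproliferative proteins. In BMDMs Tob1 was at 0.28 and Btg1 at -0.97 (edgeR adjusted p = 0.654 and 0.269). Of the 9 histone rows 1 could be tested, with 0 past the threshold.

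Set beside each other within the Tshr f/f controls, BMDMs held far more of this RNA than liver. In an edgeR fit of all 12 libraries, 38 of the 42 genes differed at an adjusted p under 0.05, 37 of them higher in BMDMs, against 69.3% of all genes called in either direction and 32.7% called higher in BMDMs. The median log2 difference was 3.20 over the mitotic genes and 2.02 over the S-phase genes, against -0.03 over all genes. Tissue, culture with M-CSF, TSH, diet and insulin differ together between these groups and cannot be told apart. Mki67 had the largest difference of the 42, a log2 value of 5.48 (SE 0.66, edgeR adjusted p = 3.07e-05), or 44.6-fold. Without Tshr f/f BMDM replicate 3, chosen after seeing the data, it was 4.77 (SE 0.52, edgeR adjusted p = 2.98e-05), or 27.3-fold, and still the largest of the 42. Cenpf and Cenpe, both of the kinetochore, followed at 4.59 and 4.42, and Uhrf1, which keeps up DNA methylation behind the fork, was the first S-phase gene at 4.12. With the liver headings turned Mki67 still led, at 5.27, and the order after it changed. Uhrf1 at 4.82, Bub1 at 4.71, Top2a at 4.48 and Tpx2 at 4.43 then came above Cenpe at 4.32, and Cenpf was at 3.73. With the headings as labelled Cenpf and Cenpe had means of 0.39 and 0.74 CPM in Tshr f/f liver.

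**Figure D5:**
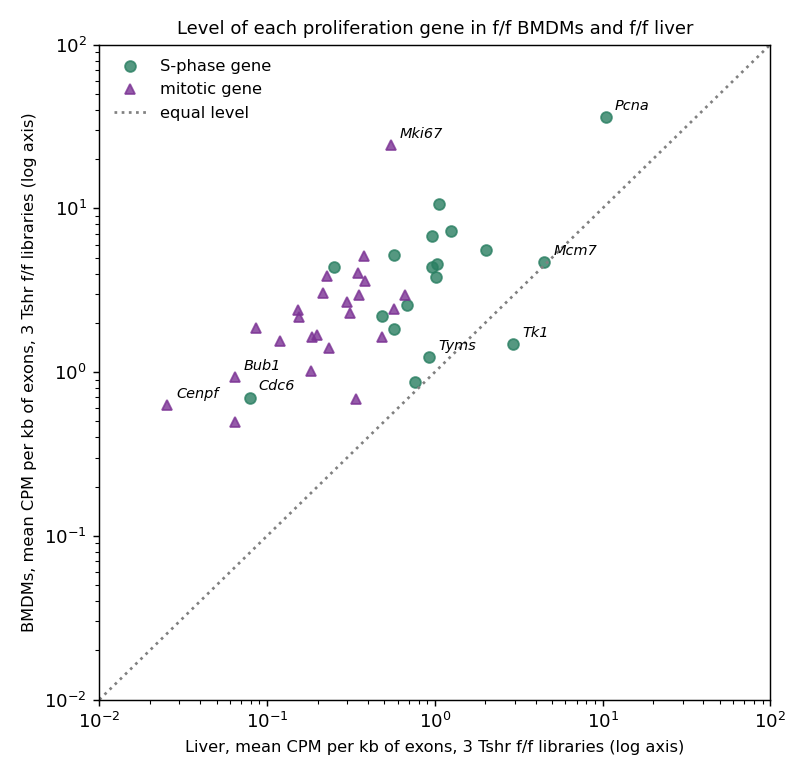
Mean level of each of the 42 genes in the 3 Tshr f/f BMDM libraries (vertical) against the 3 Tshr f/f liver libraries (horizontal), in CPM per kb of exons from a fit of all 12 libraries, both axes log. Of the 42 genes only Tk1 was called lower in BMDMs, and Mki67 lies farthest above the line of equal level.

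A handful of genes did not follow the rest. Tk1 was the 1 gene called lower in BMDMs, at -0.99 (SE 0.39, edgeR adjusted p = 0.0407), though not without Tshr f/f BMDM replicate 3 (-0.84, SE 0.45, edgeR adjusted p = 0.122), and it shares 83 exon bases with Afmid, which had a mean of 2600 counts in liver and 165 in BMDMs. Mcm7 (0.06, 95% interval -0.20 to 0.33), Tyms (0.41), Ccne2 (0.20) and Kif23 (1.01) were not called, with edgeR adjusted p-values from 0.0681 to 0.647. Mcm7 and Ccne2 also share exon bases with genes on the opposite strand. For Mcm7 these were Cops6 and Ap4m1, with means of 2800 and 584.5 counts in liver and 1871 and 723 in BMDMs. For Ccne2 it was Ints8, with 484.5 in liver and 899 in BMDMs, and the part of these in the levels was not tested. The calls of Mcm7 and Kif23 depended on the liver headings: with them turned, Mcm7 (0.42, edgeR adjusted p = 0.00894) and Kif23 (1.46, edgeR adjusted p = 0.0154) were called higher in BMDMs. Tk1 was again called lower, at -1.73 (edgeR adjusted p = 0.00240), and Tyms and Ccne2 were again not called. Per kb of exons and averaged over both genotypes within a tissue, Pcna, Mki67 and Mcm3 led in BMDMs at 53.2, 23.6 and 15.1 CPM per kb, and Pcna, Mcm7 and Tk1 led in liver at 7.71, 2.95 and 2.88 CPM per kb, where Mki67 was the 16th of the 42 at 0.43 CPM per kb. In BMDMs the libraries of Mki67 spanned 11.0 to 59.6 CPM per kb and overlapped those of Pcna (44.0 to 62.2) and of Mcm3 (13.0 to 16.4), and in liver those of Tk1 spanned 1.217 to 3.999 and enclosed those of Mcm7 (2.45 to 3.53), so only Pcna in liver stood clear of its neighbour in the order.

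The genotype effect was then compared between the tissues. In the interaction test of edgeR over 17246 genes, 0 of the 42 genes had an adjusted p under 0.05, where 0.00580% of all genes did, and 4 passed at an unadjusted p under 0.05, where 14.5% of all genes did. The 4 were Mcm7, Gins2, Cdt1 and Mcm2, a smaller share of the 42 than of all genes. Mcm7 had a log2 fold change of 0.30 in BMDMs and -0.37 in liver, a difference of 0.66 (SE 0.17, unadjusted p = 0.00265, edgeR adjusted p = 0.169). Gins2 differed by 1.40 (SE 0.42, edgeR adjusted p = 0.210), Cdt1 by 1.13 (SE 0.42, edgeR adjusted p = 0.271) and Mcm2 by 0.61 (SE 0.27, edgeR adjusted p = 0.336). With the liver genotype headings turned, an alternative chosen after seeing the data, 0 of the 42 had an adjusted p under 0.05 and 2 passed unadjusted, Gins2 and Cdc20, where 14.1% of all genes did, and the difference was -0.05 for Mcm7 (SE 0.17, edgeR adjusted p = 0.969), -1.01 for Gins2, -0.02 for Cdt1 and -0.17 for Mcm2. With the headings as labelled, Mki67 differed by -1.45 (SE 0.79, edgeR adjusted p = 0.423) and Cdk1 by -1.11 (SE 0.55, edgeR adjusted p = 0.379). With the 42 genes at no adjusted p under 0.169, a difference of the genotype effect between BMDMs and liver was not shown for any of them.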

How the data were processed

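RNA of 12 libraries was sequenced from strand-specific preparations, and the deposited unit is the raw count of reads per gene, as the authors supplied it. Their processing notes name FastQC 0.11.2, STAR, StringTie and mm10. Whether counting used the strand is not given in the sources used here. The authors' MARS model takes no spread between replicates and was run only as an alternative.

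Each tissue (6 libraries) was fitted with edgeR 4.0.16 in R 4.3.3 (quasi-likelihood, robust, TMM, filterByExpr with a minimum count of 10, Benjamini-Hochberg over all genes tested), and all 12 together for tissue and interaction. The SE is the fold change over the square root of F. Alternatives were RLE and upper-quartile scaling, library totals, no filter, a mean of 50 counts, all 12 libraries, the replicate block, the letter that opens each ID (liver), DESeq2 1.42.0, MARS (0 set to 0.5) and each library left out. The fits were also run on simulated data, and no result of that run is used here. Positions and exon lengths came from GENCODE M21 and promoters from RefSeq. Figures used matplotlib.

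The 42 genes, the other lists and the promoters were chosen with earlier results of these data known. Values by library were given for 10 fixed genes and for the 5 S-phase and 6 mitotic genes of lowest p in each tissue, and other genes as the 2 of lowest p in each list, with all CDK inhibitors tested. The calls among the further replication genes in liver are not reported here. The summed levels of progenitor (20.7 to 43.0 CPM in BMDMs), neutrophil (5.36 to 49.2) and stromal markers (666.9 to 2653) overlapped between genotypes. Of 5 neutrophil markers tested 2 were below 0 and 3 above, with log2 fold changes from -3.23 to 3.80. Of 6 stromal markers 5 were below 0 and 1 above.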

Additional observations from a re-analysis of the deposited data

Results flagged for a closer look

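Mcm7, of the replicative helicase, had separate groups in both tissues and in opposite directions: every Tshr MKO library lay above every Tshr f/f library in BMDMs and below in liver. Of all genes tested, 14.8% had separate groups with Tshr MKO higher in BMDMs, and 7.74% with Tshr MKO lower in liver. The share of all genes with both was not counted, so how unusual this pattern is was not tested. The genotype effect in BMDMs minus that in liver was 0.66 on the log2 scale (SE 0.17, edgeR interaction test, unadjusted p = 0.00265, adjusted p = 0.169), so the difference did not pass the adjusted threshold. The study's own text lists receptor counts of these livers under the opposite headings, and with the liver headings turned, an alternative chosen after seeing the data, Mcm7 would be higher in the Tshr MKO libraries of both tissues and the difference was -0.05 (SE 0.17, edgeR adjusted p = 0.969). Over the libraries left out in turn its log2 fold change was 0.20 to 0.37 in BMDMs and -0.42 to -0.33 in liver. The gene shares exon bases with Ap4m1, at 0.46 in BMDMs and -0.0012 in liver, and with Cops6, at -0.17 and -0.13, and their part in the values was not tested.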

How the results depend on the processing

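No count of genes at an adjusted p under 0.05 within a tissue moved from 0 except with the MARS model, which takes no spread between replicates: it gave 16 S-phase and 16 mitotic genes in BMDMs and 12 and 11 in liver (18, 16, 12 and 11 unadjusted). The S-phase count at an unadjusted p in BMDMs was 1 with upper-quartile scaling, library totals, all 12 libraries or DESeq2, and the mitotic count was 0 with a mean of at least 50 counts. Library totals moved the median of all BMDM genes to 0.17, of S-phase genes to 0.35 and of mitotic genes to 0.22, with Top2a at 0.10 and Ccnb1 at 0.021, so the sign of these genes depended on scaling. In liver, a mean of at least 50 counts gave 1 S-phase gene and a mitotic median of -0.46 over 3 genes, all 12 libraries gave 2 mitotic genes, and Pcna was at 0.012 with library totals and 0.019 with the ID letter. Correlations of Tshr f/f with Tshr MKO libraries of the same replicate number were 0.01 to 0.10 in BMDMs and -0.06 to 0.22 in liver. Those of different numbers were -0.19 to 0.15 in BMDMs and -0.29 to 0.28 in liver. With 3 libraries per group these values cannot show whether the samples were paired. The replicate block gave 2 S-phase genes in BMDMs and 1 mitotic gene in liver at an unadjusted p.

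With a library left out, the BMDM medians were 0.09 to 0.27 (S phase) and -0.11 to 0.14 (mitotic), with 0 to 1 and 0 to 3 genes at an unadjusted p (the 3 without Tshr f/f replicate 2, and 0 without each of the other 5). The liver medians were -0.28 to -0.05 and -0.42 to 0.16, with 1 to 5 genes (5 without Tshr f/f replicate 2) and 0 to 2 (2 without Tshr MKO replicate 2). The shares of all genes at an unadjusted p with a library left out are not given here either. Signs turned for Cdk1 (-0.11 to 0.12) and Ccnb1 (-0.39 to 0.00036) in BMDMs, and in liver for Ccne1 (-0.99 to 0.088), Pcna (-0.10 to 0.040), Rrm2 (-0.60 to 0.14), Mki67 (-0.42 to 0.52), Ccnb1 (-0.61 to 0.44) and Foxm1 (-0.72 to 0.13). Of the 24 mitotic genes in BMDMs, 22 were above 0 with library totals, 21 without Tshr MKO replicate 3 and 7 without Tshr MKO replicate 2. With 1 library left out in BMDMs, Foxm1 ran from 0.04 to 0.30, Nusap1 from 0.06 to 0.37 and Cenpe from -0.32 to -0.11. The tissue count stayed at 37 to 38 and the interaction count at 0. With the liver headings turned (chosen after seeing the data) these were 40 and 0, and the Mcm7 difference was -0.051. In liver, counts kept 2 of the 42 genes from a test. The SE was 0.14 for Rrm1 (mean 257 counts) and 0.38 for Tk1 (mean 514), and what set the SE was not tested.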
